A study of Homo sapiens with 2 samples.

Results

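Ribosome biogenesis factors and RNA polymerase I were examined as a set of 46 listed genes, taken from both deposited gene tables by NCBI gene ID. All 46 were found, of 27685 gene IDs in each table. The data were 1 library from untreated H1299 cells (control) and 1 library from H1299 cells given 5 mM metformin, a biguanide drug whose best known mitochondrial target is complex I. H1299 is an established line of non-small cell lung cancer, both cultures were labelled passage 10-15, and how long the cells were treated is not stated in the labels. Values are TPM, the share of a library's transcripts that a gene makes up after correction for length, so a change in the total RNA of the cells cannot be seen in them. With 1 library on each side, differences could not be set against the spread between cultures, no test was run and no p-value is given. Each 95% interval is an exact Clopper-Pearson interval that covers the counting of estimated read pairs only, not the variation between cultures.

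Ribosomes are built in the nucleolus, where RNA polymerase I transcribes a long precursor of most of the ribosomal RNA. Small nucleolar ribonucleoproteins (snoRNPs) modify that precursor, the small subunit processome folds and cleaves the part that enters the small (40S) subunit, and a further set of factors assembles the large (60S) subunit. Many genes of this machinery are known targets of the transcription factor MYC and are known to be highly active in growing tumour cells.

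Depth was estimated at 28.7 M read pairs for control (5.80 Gb aligned) and 31.7 M for metformin (6.40 Gb aligned). The listed genes had between 760 and 69802 estimated pairs in control and between 698 and 71298 in metformin. The cell line's markers matched the label in part: VIM was listed at 4378 and 4962 TPM in the untreated and treated cells, KRT8 at 269 and 521, and KRT18 at 553 and 954, while the epithelial marker EPCAM stayed at or below 0.253. Of the markers of other cell types, PECAM1, VWF and CD3E were at 0 in both libraries and PTPRC at 0.0266 TPM or less. COL1A1, COL1A2 and DCN did not pass 0.342 TPM, whereas CD68, also known from lysosomes of many cell types, was at 148 and 115 TPM.

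Most of the set, 39 of 46 genes, was lower in the metformin library, by a small amount. On the log2(TPM + 1) scale, metformin minus control, these made up 84.8%, 7 genes lay above 0, and the median difference was -0.21. The proliferation marker MKI67, not one of the 46, was also lower, at 160.5 TPM in control against 81.2, and its part in the lower values was not tested. Over all 14078 measured genes (1 TPM or more in either library), 59.7% lay below 0, 40.3% lay above and the median was -0.08. Among the 9278 genes at a mean of 10 TPM or more, a level that 45 of the 46 reach, 62.4% lay below 0. Few genes lay far from control: 10 of 46 (21.7%) were lower by 0.32 or more on that scale, a ratio of about 0.8, against a background of 22.1%, and that share is not a result about the set. NOP58 alone was lower by 1.5-fold or more (background 7.03%), no gene was lower by 2-fold (background 1.24%), and none was higher by 1.5-fold (background 5.40%) or by 2-fold (background 1.51%). RRN3 and RRP12 were higher by 0.32 or more, against a background of 13.7%.

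**Figure D1:**
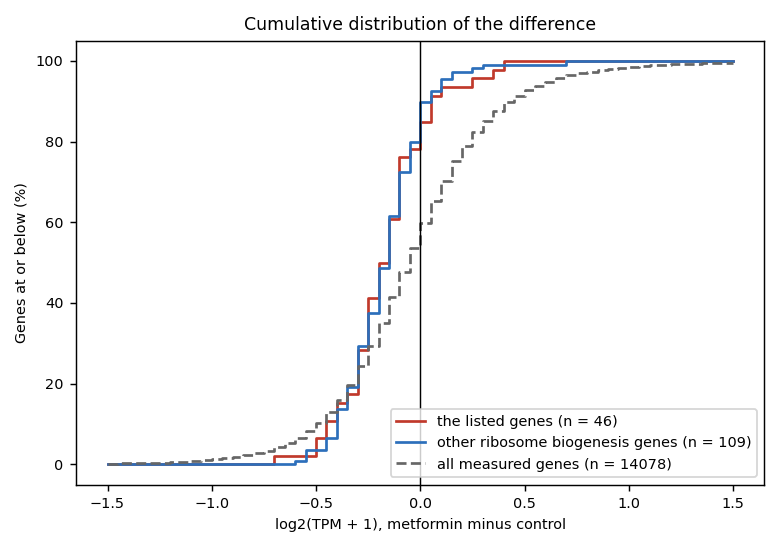
Cumulative percentage of genes (vertical axis) at or below a given difference of log2(TPM + 1), metformin minus control (horizontal axis), for the 46 listed genes (red), 109 further ribosome biogenesis genes (blue) and all 14078 measured genes (dashed grey). Both gene sets reach 84.8% or more at 0, where all measured genes reach 59.7%. No gene of either set passes 2-fold, beside 1.24% lower and 1.51% higher among all measured genes. With shares that small, the absence is not a result about the sets.

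The plain TPM ratios of the set ran from 0.602 to 1.30 with a median of 0.865. Its summed TPM was 11519 in control against 10217 in metformin, a ratio of 0.887, and 0.877 without NPM1, the most abundant gene. The counting interval of the ratio lay below 1 for 36 genes (78.3%), above 1 for 5 and held 1 for 5. The background for an interval below 1 was 41.8% of all measured genes with an interval, and 48.3% of those at a mean of 10 TPM or more. For an interval above 1 it was 23.8% of all. Exons of 13 genes overlap another gene on the same strand or the gene has a listed copy, and 19 genes have no overlap on either strand and no listed copy. Of those 19, 17 lay below 0, with a median of -0.26. Copies were matched by gene name among the gene IDs with deposited values, so copies that are not listed were not covered. The size of the shift depended on the scaling of the libraries, which the counting intervals do not cover. After centring on the median of well expressed genes (10 TPM or more in control and in metformin), which moved all values by 0.09, the set split into 35 genes below 0 and 11 above with a median of -0.12, while all measured genes had a median of 0.01 and 49.1% below 0.

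Before the values of the single genes, the upstream sequences of 5 of them are shown as a description, since the known activators of these genes bind near their start sites. RefSeq windows of GRCh38.p14 held 40 of the 46 genes, and the 250 bases before each start were searched on both strands. The E-box CACGTG, the site known to be bound by MYC with MAX, was found in 5 of the 40 (12.5%), against 11.5% of 10151 measured protein-coding genes with a window. The ETS motif CCGGAAG was found in 14 of 40 (35.0%, against 19.5%). The GC box GGGCGG (29 of 40, 72.5% against 76.0%), the TATA box TATAAA (2 of 40, 5% against 7.65%) and the YY1 motif AAGATGG (1 of 40, 2.5% against 4.80%) were searched as well. Over all 35116 windows of the table the E-box was in 6.34% and the ETS motif in 8.52%, and these motifs share no overlapping bases in the sequences shown. The sequences below run 5′ to 3′ on the strand of the gene, and their coordinates are those of hg19, the build of the deposited tables, found by exact match. Bases inside an exon of the GENCODE annotation, or inside the span that the deposited tables give for the gene, are not shown, although the search covered them. Capitals mark the E-box and the ETS motif (CTTCCGG on the other strand). GAR1, UTP20 and WDR75 were among the lowest genes, UTP18 holds both motifs, and NOB1 was among the highest.
GAR1 (chr4:110736567-110736665, plus strand): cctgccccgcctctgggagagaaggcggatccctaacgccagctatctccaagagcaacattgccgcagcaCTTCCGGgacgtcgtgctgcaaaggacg
UTP20 (chr12:101673633-101673882, plus strand): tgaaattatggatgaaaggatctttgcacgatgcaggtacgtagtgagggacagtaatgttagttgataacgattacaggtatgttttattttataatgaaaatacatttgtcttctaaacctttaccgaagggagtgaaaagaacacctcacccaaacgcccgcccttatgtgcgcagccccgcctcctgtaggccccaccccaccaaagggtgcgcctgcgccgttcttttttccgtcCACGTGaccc
WDR75 (chr2:190305950-190306158, plus strand): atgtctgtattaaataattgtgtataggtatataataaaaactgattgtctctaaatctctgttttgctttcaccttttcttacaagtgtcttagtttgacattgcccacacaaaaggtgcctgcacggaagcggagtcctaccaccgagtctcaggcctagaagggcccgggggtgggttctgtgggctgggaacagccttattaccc
UTP18 (chr17:49337657-49337896, plus strand): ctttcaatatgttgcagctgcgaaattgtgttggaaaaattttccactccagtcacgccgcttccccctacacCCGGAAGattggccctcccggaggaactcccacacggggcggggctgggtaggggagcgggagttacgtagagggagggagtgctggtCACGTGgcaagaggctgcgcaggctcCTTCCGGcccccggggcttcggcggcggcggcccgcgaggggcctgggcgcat
NOB1 (chr16:69788872-69789079, minus strand): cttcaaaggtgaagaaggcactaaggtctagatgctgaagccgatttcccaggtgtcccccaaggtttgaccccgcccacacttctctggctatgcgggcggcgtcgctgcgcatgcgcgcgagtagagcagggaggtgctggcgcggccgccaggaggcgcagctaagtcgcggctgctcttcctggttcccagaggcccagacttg

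UTP20 holds an E-box close to its start, GAR1 holds the ETS motif, UTP18 holds an E-box between 2 ETS motifs, and WDR75 and NOB1 hold neither. RRN3, the highest gene of the set, also has the ETS motif in its window, and UTP15 and WDR75, among the lowest, have neither motif. The 5 genes with an E-box, namely NOP10, UTP4, UTP14A, UTP18 and UTP20, all lay below 0, with a median difference of -0.30, beside -0.18 for the 35 genes without one. The 14 genes with the ETS motif had a median difference of -0.27, and 13 of them lay below 0, beside a median of -0.16 for the others. In the whole set 84.8% lay below 0, and counts this small cannot be told from that share. They are not a result about the motifs, and no relation of the motifs to the differences was tested. A match of letters is a description and shows no binding.

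RNA polymerase I and its initiation factors did not move as a block. POLR1A, the largest subunit of the polymerase, had 37.0 TPM in control against 31.6 in metformin, a ratio of 0.853 (interval 0.822 to 0.886). POLR1B, the second largest subunit, had 42.3 and 34.7 TPM and a ratio of 0.820 (0.784 to 0.859). The difference of POLR1A, -0.22, lay near the median of the set, -0.21, and that of POLR1B, -0.28, lay below it. Each was lower in metformin beyond its counting error. POLR1C and POLR1D, which RNA polymerase III also contains, had intervals that held 1: POLR1C was at 65.8 and 64.8 TPM, a ratio of 0.985 (0.904 to 1.07), and POLR1D at 90.0 and 93.2 TPM, a ratio of 1.04 (0.939 to 1.14). The further subunits were split within both kinds. Of those particular to polymerase I, POLR1F (ratio 0.644) and POLR1G (0.766) were lower beyond counting error, whereas the intervals of POLR1E (0.935 to 1.05) and POLR1H (0.970 to 1.18) held 1. Of those shared with other polymerases, POLR2K (0.775), POLR2H (0.789) and POLR2E (0.881) were lower beyond counting error, and the intervals of POLR2L and POLR2F held 1.

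The listed initiation factors, UBTF and RRN3, moved in opposite directions. UBTF, which binds the ribosomal DNA and opens it for the polymerase, had 95.5 TPM in control against 72.6 in metformin, a ratio of 0.759 (0.730 to 0.789). RRN3, also called TIF-IA, joins the polymerase to the promoter factors and was the highest gene of the set, at 20.9 and 27.1 TPM, a ratio of 1.30 (1.19 to 1.41). In hg19 RRN3 spans 15153879 to 15188192 of chromosome 16 on the minus strand. It has 3 listed pseudogene copies on the same chromosome with which reads can be exchanged, and these summed to 6.71 TPM in control and 6.05 in metformin. The sum of RRN3 and its copies had a ratio of 1.20, so the higher value of RRN3 was still seen with the copies added. RRN3 stood at 0.218 of the TPM of UBTF in control and at 0.373 in metformin. Of further polymerase I factors outside the set, TAF1B (ratio 0.884), TAF1C (0.880), TAF1D (0.906) and TTF1 (0.858) were lower beyond counting error. The interval of TAF1A (0.767 to 1.09) held 1, so none of these was higher like RRN3 beyond counting error.

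Box C/D snoRNPs carry out 2′-O-methylation of ribosomal RNA, and all 3 of their listed proteins were lower. NOP58, a core protein of these particles, was the lowest gene of the whole set. It had 236 TPM in control against 142 in metformin, a ratio of 0.602 (0.577 to 0.627), and a difference of -0.73 on the log2(TPM + 1) scale, which lay at percentile 3.82 of all measured genes. After subtraction of the fit on GC content and length described below, it was -0.54, no longer past 1.5-fold. Its hg19 position is chromosome 2, 203130439 to 203168384, plus strand. Exons of NOP58 overlap SNORD70 on the same strand and another gene on the other strand. NOP56, the structurally related core protein of the same particle, was at 301 and 277 TPM, a ratio of 0.921 (0.892 to 0.952). The methyltransferase FBL, fibrillarin, was at 1054 and 925 TPM, a ratio of 0.878 (0.857 to 0.898). In TPM, NOP58 therefore stood at 0.784 of NOP56 in control and at 0.512 in metformin, while FBL stood at 3.51 and 3.34 times NOP56.

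Box H/ACA snoRNPs carry out pseudouridylation, and their 4 core proteins are also part of telomerase. All 4 were lower. GAR1, a core protein of the mature particle, had 72.6 and 49.9 TPM and a ratio of 0.688 (0.622 to 0.760). GAR1 spans 110736666 to 110745893 of chromosome 4 (hg19, plus strand). The other 3 lay close together: the pseudouridine synthase DKC1, dyskerin, had a ratio of 0.896 (151.6 and 135.8 TPM), NOP10 of 0.903 (598 and 540 TPM) and NHP2 of 0.914 (372 and 340 TPM). The counting interval of GAR1 did not overlap those of DKC1 (0.860 to 0.934), NOP10 (0.863 to 0.946) or NHP2 (0.873 to 0.958). In each of the snoRNP classes 1 core protein thus stood apart below its partners.

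Of the abundant nucleolar phosphoproteins, NPM1 and NCL were lower beyond counting error by about as much as DKC1, NOP10 and NHP2, and NOLC1 was slightly higher. NPM1, nucleophosmin, which shuttles ribosomal particles and histones, was the most abundant gene of the set at 4343 TPM in control against 3922 in metformin, a ratio of 0.903 (0.894 to 0.913). NCL, nucleolin, which binds the ribosomal RNA precursor, was at 1294 and 1146 TPM, a ratio of 0.885 (0.875 to 0.895). NOLC1, a chaperone of snoRNPs also called Nopp140, was at 169 and 174 TPM, a ratio of 1.03 (1.001 to 1.06). NPM1, NCL and FBL had the highest mean TPM of the 46 genes.

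**Figure D2:**
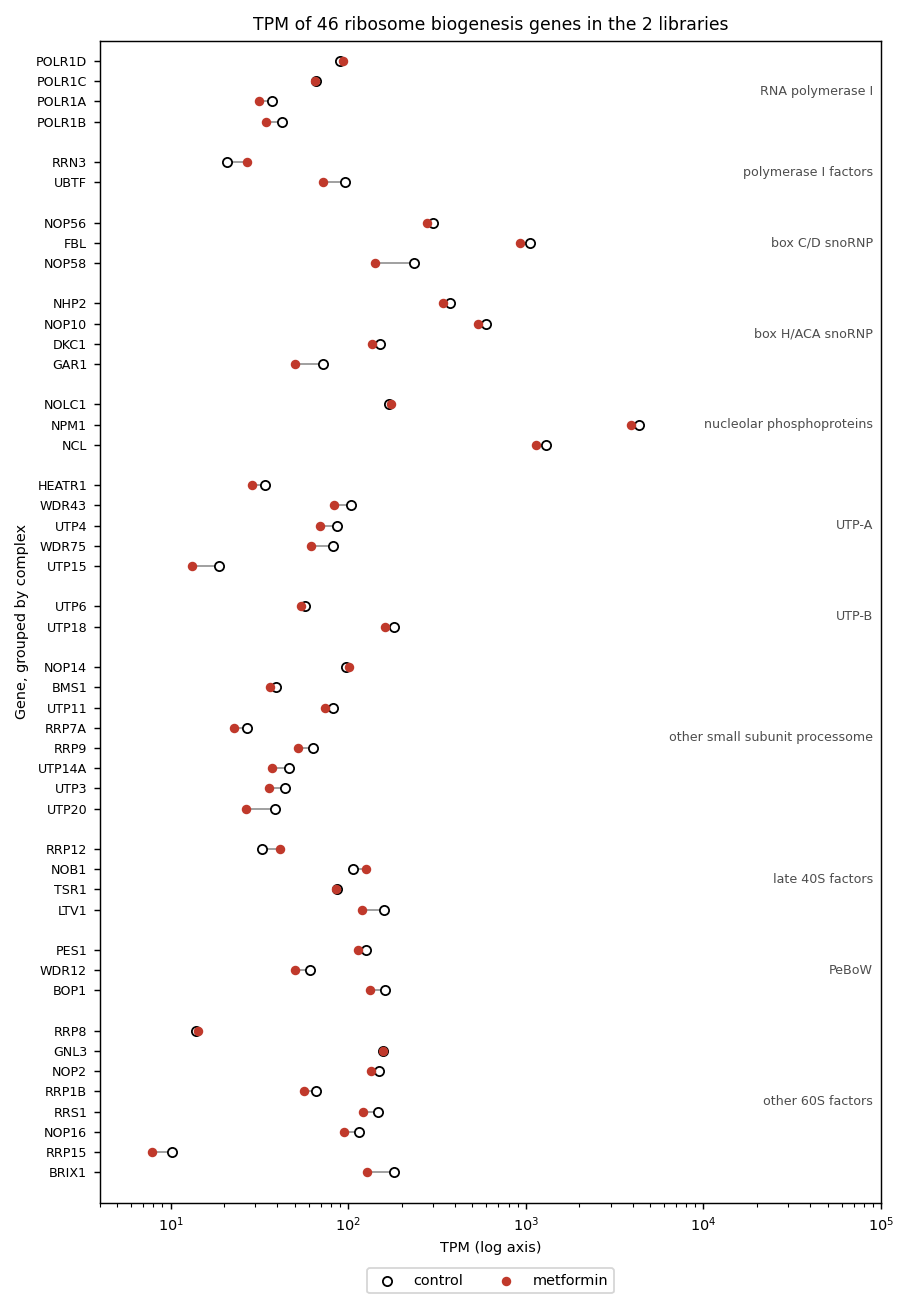
TPM of each of the 46 genes (log axis) in the control library (open circles) and the metformin library (red points), grouped by complex and ordered by difference within each. Most red points lie left of their open circle by a short distance, with NOP58 the widest gap, at 236 and 142 TPM, and RRN3, RRP12 and NOB1 to the right.

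The small subunit processome is the large particle that forms on the emerging precursor around the U3 snoRNP. Of its 15 listed proteins 14 lay below 0, with a median difference of -0.26. The UTP-A complex, which binds the precursor first and is also linked to its transcription, had the lowest median of the 11 groups of the set. Its 5 members all lay below 0, between -0.46 and -0.23, with a median of -0.32. UTP15 had 18.7 and 13.3 TPM and a ratio of 0.710 (0.651 to 0.775), and WDR75 had 82.3 and 61.6 TPM, a ratio of 0.749 (0.708 to 0.793). UTP4, also called cirhin, had a ratio of 0.797 (87.1 and 69.4 TPM), and WDR43 of 0.800 (104 and 83.4 TPM). HEATR1 was the nearest to control, at 34.1 and 28.8 TPM, a ratio of 0.846 (0.807 to 0.887). Each of these 5 intervals lay below 1. UTP-A transcripts are poor in G and C, with a median GC content of 40.02% beside 48.3% for all measured genes, and the group median was -0.18 once a fit of the difference on GC content and length was subtracted, when 4 other groups had lower medians: box C/D at -0.23, the other processome proteins at -0.22, PeBoW at -0.21 and the other large subunit factors at -0.20.

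UTP-B, the next complex to join, was represented by UTP18, at 182 and 162 TPM with a ratio of 0.889 (0.851 to 0.928), and UTP6, at 57.4 and 54.2 TPM with a ratio of 0.944 (0.898 to 0.992). The UTP6 difference of -0.08 was close to the median of all measured genes and changed sign with centring and in the values corrected for GC content and length.

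Among the other processome proteins, UTP20, a very large scaffold protein, was the lowest, at 38.6 TPM in control against 26.5 in metformin, a ratio of 0.687 (0.656 to 0.719). The hg19 span of UTP20 is 101673905 to 101780397 on chromosome 12, plus strand. NOP14 was the highest and the only one of this group above 0, at 97.2 and 101.7 TPM, a ratio of 1.05 (1.004 to 1.09). Its exons overlap those of NOP14-AS1 on the other strand. Between them lay UTP3, UTP14A, RRP9, a protein particular to the U3 snoRNP, RRP7A, UTP11 and the GTPase BMS1, with differences from -0.30 for UTP3 to -0.12 for BMS1. UTP14A was at 46.3 and 37.4 TPM, RRP9 at 63.1 and 52.4 TPM, and BMS1 at 39.3 and 36.2 TPM. UTP14A, RRP7A and BMS1 have listed copies elsewhere in the genome, and with them added the ratios were 0.801, 0.880 and 0.945.

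Late factors of the small subunit, which act on the precursor particle up to its last cleavage in the cytoplasm, were split. RRP12, known for the export of the precursor particles, had 32.7 TPM in control against 41.1 in metformin, a ratio of 1.26 (1.18 to 1.34). NOB1, the endonuclease that makes the final cut of the small subunit RNA, was at 107.0 and 126 TPM, a ratio of 1.18 (1.12 to 1.247). TSR1 had an interval that held 1, with 86.1 and 85.7 TPM and a ratio of 0.995 (0.955 to 1.04). LTV1, an assembly factor of the small subunit head, went the other way at 158 and 119 TPM, a ratio of 0.753 (0.717 to 0.790). LTV1 stood at 1.48 times the TPM of NOB1 in control and at 0.943 of it in metformin. RRP12 and NOB1 each overlap a noncoding RNA gene on the other strand, and no source used here says if counting was strand-specific.

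The factors of the large subunit resembled those of the small one, with 10 of 11 below 0 and a median difference of -0.27. PES1, BOP1 and WDR12 form the PeBoW complex, which is known to be required for maturation of the large subunit RNA, and all 3 lay below 0. BOP1 had 162 and 132 TPM and a ratio of 0.815 (0.782 to 0.850), WDR12 had 60.7 and 49.99 TPM, a ratio of 0.824 (0.794 to 0.855), and PES1 had 126 and 114 TPM, a ratio of 0.903 (0.861 to 0.946). The transcript of BOP1 has the highest GC content of the set, 65.6%, and that of WDR12 has 39.6%. With the fit on GC content and length subtracted, their differences, -0.29 and -0.27, became -0.40 for BOP1 and -0.08 for WDR12.

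BRIX1, which takes part in early assembly of the large subunit, was the lowest of the remaining 8, at 182 and 128 TPM, a ratio of 0.706 (0.671 to 0.742). RRP15 had the lowest level of the set, at 10.2 and 7.90 TPM, a ratio of 0.772 (0.703 to 0.848). NOP16, RRS1, which takes part in loading the 5S particle, RRP1B and the RNA methyltransferase NOP2 lay between -0.28 and -0.14. With the fit on GC content and length subtracted the order changed: RRS1 (-0.32) and NOP16 (-0.28) were the lowest, BRIX1 was at -0.25 and RRP15 at -0.03. GNL3, nucleostemin, a GTPase of the nucleolus, had 157.5 TPM in control against 157.0 in metformin, a ratio of 0.997 (0.953 to 1.04). RRP8, a methyltransferase of the large subunit RNA, was the highest, at 13.9 and 14.3 TPM, with an interval that held 1 (0.946 to 1.11).

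**Figure D3:**
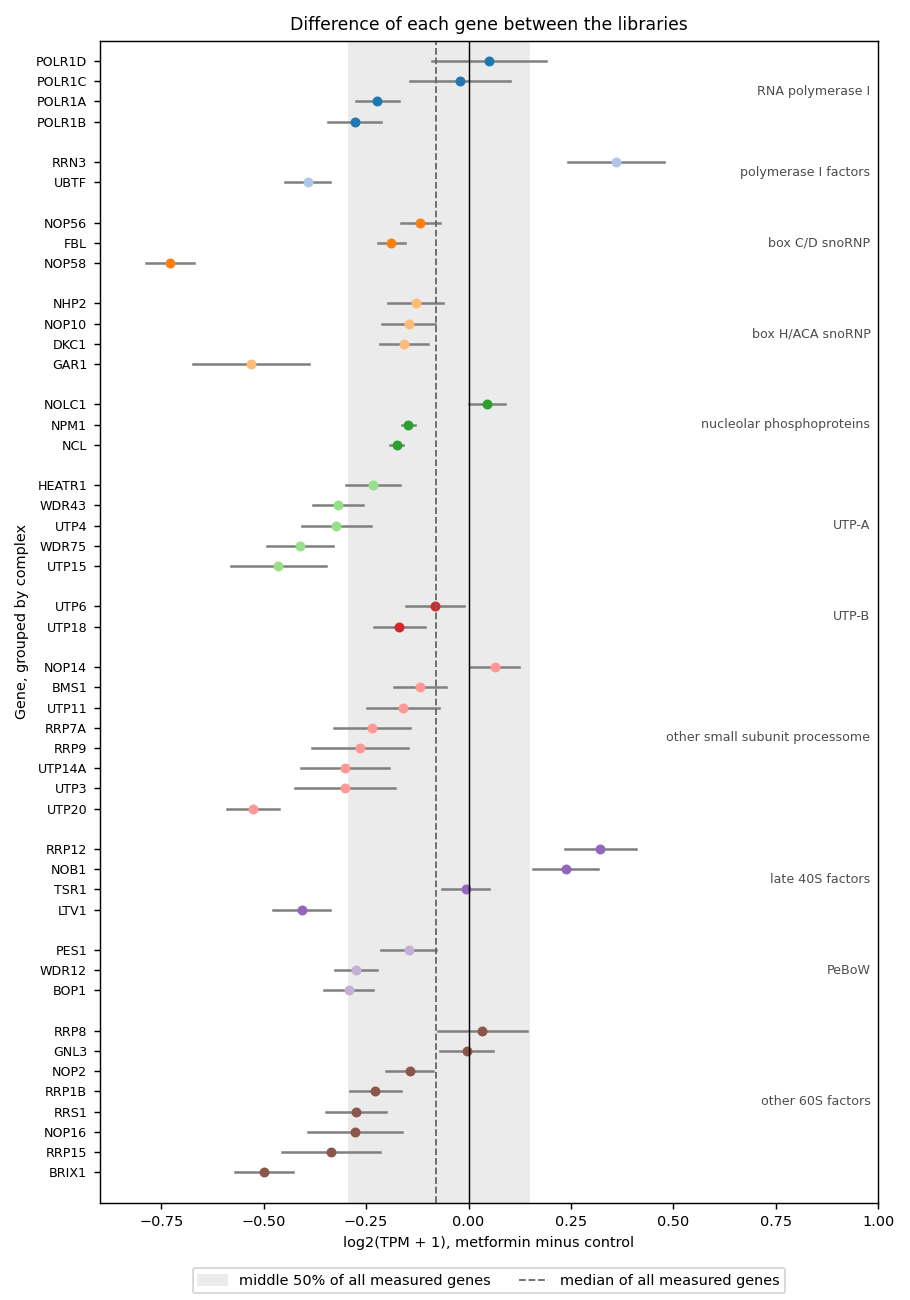
Difference of log2(TPM + 1), metformin minus control (horizontal axis), for each of the 46 genes by complex (colours), with bars for the 95% counting interval of the ratio on that scale. The dashed line is the median of all measured genes (-0.08) and the grey band their middle 50% (-0.29 to 0.15). All genes of UTP-A, UTP-B, PeBoW and both snoRNP classes lie left of 0, and RRN3, RRP12 and NOB1 lie right of the band.

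Across the set the differences were narrow. The middle 50% of the 46 genes lay between -0.30 and -0.12, whereas that of all measured genes ran from -0.29 to 0.15. With respect to that wider range, 30 of the 46 genes lay inside it and 36 lay below the median of all measured genes. Differences across the set went with mean TPM at a Spearman rho of 0.12 and with transcript length at -0.07, over 46 genes that share the same 2 libraries. With GC content rho was 0.30, beside 0.34 over 13521 measured genes.

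The transcriptome as a whole thus had a trend with base composition that touches the set. Over 10 bins of measured genes by GC content, the median difference was -0.27 in the bin with the lowest content and 0.08 in that with the highest. The median GC content of the 46 genes was 46.9%. With the trend over GC content and transcript length removed, the median difference of the set was -0.14 and 33 of 46 genes lay below 0, beside a median of -0.02 and 52.2% for all measured genes. NOP58, GAR1, UTP20 and BRIX1 remained below 0 and RRN3, RRP12 and NOB1 above 0 in every setting run that held them, whereas NPM1, BMS1 and UTP6 had small positive values without the trend. The settings without overlaps or copies did not hold NOP58 and RRN3, and the one for either strand did not hold RRP12 and NOB1. The part of base composition in the differences was not tested further.

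**Figure D4:**
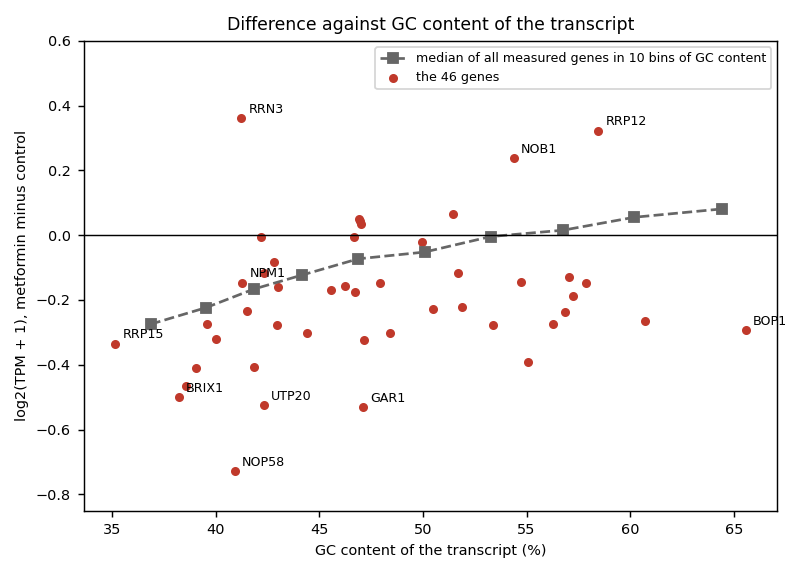
Difference of log2(TPM + 1), metformin minus control (vertical axis), against the GC content of the transcript in percent (horizontal axis) for the 46 genes (red points). Grey squares are medians of all measured genes in 10 bins of GC content, from -0.27 to 0.08, and 33 of the 46 genes lie below 0 once a trend fitted over GC content and length is removed.

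A feature that the list did not use is that several of these genes carry small nucleolar RNA genes inside them. On the same strand and within the coordinates of the gene, 7 of the 46 (15.2%) held listed snoRNA genes, 24 in all, against 1.47% of the 12230 measured protein-coding genes. NOP56 and GNL3 held 5 each, NOP58 held 4, NCL and WDR43 held 3 each, and DKC1 and TSR1 held 2 each. In NOP58 these were SNORD11, SNORD11B, SNORD70 and SNORD70B. Their hosts did not share a value: NOP58 had a ratio of 0.602 and WDR43 of 0.800, while GNL3 and TSR1 were within counting error of control.

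Further genes of ribosome biogenesis, 109 genes not among the 46, lay mostly on the same side. Of these, 98 (89.9%) lay below 0, with a median difference of -0.20, beside 59.7% and -0.08 for all measured genes. By 1.5-fold or more 2 were lower (background 7.03%) and 1 was higher (background 5.40%). None passed 2-fold, where the background was 1.24% lower and 1.51% higher. The lowest were NOL11, a partner of UTP4 in UTP-A, at 114 and 72.5 TPM (ratio 0.638, 0.608 to 0.670), POLR1F, a polymerase I subunit, at 15.4 and 9.93 TPM (ratio 0.644, 0.575 to 0.721), and TEX10, a large subunit factor, at 86.8 and 57.8 TPM (ratio 0.666, 0.631 to 0.702). The highest was EXOSC1, a cap subunit of the RNA exosome, at 37.7 and 61.3 TPM, a ratio of 1.63 (1.46 to 1.81). EFL1, a GTPase that acts late on the large subunit, followed at 1.24 (1.14 to 1.35) and NOP53, also a large subunit factor, at 1.18 (1.14 to 1.23). Of the 32 further small subunit genes 30 lay below 0 (93.75%), and of the 38 further large subunit genes 35 (92.1%), against 59.7% of all measured genes.

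MYC, the best known activator of these genes, was not lower. It had 195 TPM in control against 241 in metformin, a ratio of 1.24 (1.20 to 1.27), the direction opposite to that of 39 of the 46 genes. Its partner MAX was at 64.4 and 56.2 TPM, a ratio of 0.873 (0.813 to 0.937). Among the proteins that compete with MYC for MAX, MXD4 (ratio 1.29), MXD1 (1.17) and MNT (1.15) were higher, MXI1 was within counting error of control (0.991), and MXD3 was lower at 22.8 and 13.3 TPM, a ratio of 0.585 (0.486 to 0.704). No relation of these values to those of the 46 genes was tested.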

How the data were processed

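RNA of 1 untreated and 1 metformin-treated H1299 culture was sequenced; the kit was TruSeq Stranded mRNA LT and reads were mapped with Bowtie2 to hg19, per the labels' protocols. Per the submitters' processing notes, Trimmomatic 0.38 and HISAT2 were used, with builds called hg19 and GRCh37. No source used here names the program behind the abundances. Per the file headers, the authors deposited TPM, FPKM and coverage per gene; TPM was used for all main values, and the deposited FPKM and coverage signal for depth and alternatives.

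Symbols came from a RefSeq table (GRCh38.p14), with 27559 IDs matched and 126 not; rows of 1 ID were summed. Total aligned bases were the largest ratio of coverage to FPKM. A read pair was taken as 202 bases, the commonest total of aligned bases in short, sparsely covered genes, and pairs per gene came from FPKM and GENCODE 44 transcript lengths (BOP1 by its longest transcript, others by the canonical one). The intervals take gene abundances as counts and so leave out the error of assigning reads to transcripts.

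The difference was log2(TPM + 1), metformin minus control. A gene was measured at 1 TPM or more in at least 1 library. Calls at 0.32, 1.5-fold and 2-fold use this difference; ratios are plain TPM ratios. Named were the highest and lowest gene of each of 11 complexes, genes past 1.5-fold, the 3 most abundant, the 3 highest and 3 lowest further genes, and MYC with its partners; the other genes of the set are named to account for all members. Members, lists and rules were chosen with earlier results of these data known. Calls and intervals were run on simulated Poisson counts, which hold no spread between cultures and no error of read assignment. That run therefore cannot show that the intervals hold for the estimated pairs. The trend over GC content and log2 length was a quadratic fit over 13521 measured genes (96.0%). Python 3.11.15, numpy 2.4.6, pandas 2.3.3 and scipy 1.17.1 were used.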

Additional observations from a re-analysis of the deposited data

How the results depend on the processing

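With 1 library per group no replicate could be left out, and no paired analysis was possible because each group has 1 sample. There were 11 alternative settings, and 2 added after seeing the data (members without any exon overlap or listed copy, and members summed with listed copies). Of the 46 genes, 33 stayed below 0 and 7 above 0 in every setting run that held them, and 6 (POLR1C, NPM1, UTP6, BMS1, TSR1, GNL3) lay on both sides. Changing the minimum TPM or leaving genes out could not alter a gene's own value. Taking the highest row per gene ID left all 46 differences as they were, and summing with copies touched 4 genes. The count therefore rests mainly on the changes of pseudocount, measure, scaling and trend. The median of the set stayed below 0 throughout. The cause of the moves was not tested.

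Centring on genes at 10 TPM or more gave a median of -0.12 for the set, -0.10 for box C/D, -0.064 for box H/ACA, -0.037 for UTP-B and -0.11 for the 109 further genes, with 11 genes above 0, 6 lower by 0.32 on the log2 scale and UTP6 at 0.0062. Trimmed mean scaling gave -0.13, -0.11, -0.076, -0.050 and -0.12 for the same medians. Removal of the GC and length trend gave -0.14 for the set, -0.12 for box H/ACA, -0.18 for UTP-A, -0.0050 for UTP-B and -0.12 for the further genes. It left 13 genes above 0, 6 lower and 1 higher by 0.32 and 0 lower by 1.5-fold, turned the median of the nucleolar phosphoproteins to 0.042 and that of UBTF and RRN3 to 0.048, and turned NPM1 (0.042), UTP6 (0.058) and BMS1 (0.020) positive. FPKM gave -0.12 for box H/ACA and -0.16 for the further genes, and coverage gave -0.10 for box H/ACA. With a pseudocount of 5, 0 genes were higher by 0.32.

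Without the 13 genes that share exonic reads on the same strand or have a listed copy, 1 gene was higher by 0.32 and 0 lower by 1.5-fold. Leaving out overlaps on either strand kept 19 genes, with 17 below 0 and 2 above, 6 lower by 0.32, 0 higher by 0.32 and 0 lower by 1.5-fold. These last counts are lower in part because fewer genes were left. For RRP15, the gene with the lowest level, counting error alone gave the ratio an interval of 0.703 to 0.848.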
